A study of Arabidopsis thaliana with 30 samples.

Results

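Of the 37513 gene rows counted in leaves of Arabidopsis thaliana, 111 were chloroplast-genome genes, taken here as the rows whose locus ID starts with ATCG and that held at least 30 counts summed over the 30 libraries. In all, 133 rows carried such an ID, and the 22 left out reached at most 25 counts, while the members with the fewest held 37 and 40. Of the 111 members, 23 held under 100 counts. A filter on low counts left 83 members in the tests, and the 28 untested members held at most 129 counts each.

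Plants of 3 genotypes in the Columbia background were compared. AhHAB4-PAI-1 OE (line L13) and Ah2880 OE (line L12) were homozygous T4 plants that each expressed 1 transgene from Amaranthus hypochondriacus, a grain amaranth, under the 35S promoter of cauliflower mosaic virus, which is active in most plant tissues, and WT was the untransformed control. Each transgene was represented by 1 line, so the effect of the transgene and of its insertion cannot be told apart. Plants of 4 weeks, by the labels, were heated at 45 °C for 1 h (HS-1), 5.5 h (HS-5) or 11 h (HS-11), or were heated for 22 h and then kept at 22 °C for 1 day (R-1) or 3 days (R-3), with 2 libraries, each of the leaves of pooled plants, for each of the 15 combinations. All groups had been heated, and no comparison with unheated plants was made. The recovery plants had a longer exposure than any heat shock group. The paper also describes heating under constant light and recovery in a cycle of light and dark. Recovery, the longer heating and the change of light therefore cannot be told apart in any comparison between them.

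The chloroplast genome carries genes for the large subunit of Rubisco, for core subunits of the photosystems, the cytochrome complex, ATP synthase and the NDH complex, for part of the plastid ribosome with its ribosomal and transfer RNAs, and for the core of a bacterial-type RNA polymerase, the plastid-encoded polymerase (PEP). PEP needs sigma factors and associated proteins made from nuclear genes, and a separate phage-type polymerase, nuclear-encoded, also transcribes the plastid genome. Plastid RNAs are as a rule not stably polyadenylated, and a short tail marks many of them for degradation. The libraries here were made after oligo(dT) enrichment, so a change in the amount of a plastid RNA and a change in how well it was captured cannot be told apart in any result below, nor can fewer chloroplasts or less RNA per chloroplast.

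The files name genes by locus ID, and 14 of the 111 members could be given a product, which leaves 97 as IDs. By their labels, the 14 included the large subunit of Rubisco (ATCG00490) and 3 members labelled as photosystem II proteins (ATCG00070, ATCG00430 and ATCG00560). They also included ATP synthase subunits (ATCG00480, ATCG00470 and ATCG00150), a CemA-like protein (ATCG00530) and the plastid-encoded CLP P protease subunit (ATCG00670). The rest were 5 ribosomal proteins, of which only L2 (ATCG01310) passed the filter. The labels were not checked against sequence. The L20, S11, S2 and S12 proteins (ATCG00660, ATCG00750, ATCG00160 and ATCG00065) did not pass it. The RefSeq annotation of the chloroplast genome lists 131 gene records, of which 87 are protein-coding, 37 are for transfer RNAs and 7 are for ribosomal RNAs, and 10 gene names occur in a pair of records, as genes of the inverted repeat do.

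Library totals ran from 686550 to 5739590 counts in 28 libraries, but only 46825 and 50677 in the WT R-3 libraries. In those, all members together held 940 and 189 counts, and 62 of the 83 tested members had no count in either, so no median or fold change over the members is given for WT R-3. The factors that adjust totals for composition (TMM, trimmed mean of M-values) ran from 0.588 to 1.71, and all CPM values (counts scaled to a common library size) below use the TMM-adjusted totals. Outside WT R-3, 4 of the 5 leaf markers stayed at 323 CPM or above: CAB1 and LHCB2.1, of the light-harvesting antenna, were at 2973 to 16551 and 323 to 5806 CPM, RBCS1A, the Rubisco small subunit, at 1228 to 8435 CPM and RCA, Rubisco activase, at 1161 to 13684 CPM. CA1, a carbonic anhydrase, ranged from 22.9 to 3549 CPM. Over all 30 libraries the seed storage genes CRA1 and CRU3 had 31 and 4 counts, and PYK10, a root gene, was at 13.2 to 158 CPM outside WT R-3 and reached 656 CPM within it.

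A large majority of the plastid counts came from 4 IDs, singled out after their values were seen. ATCG00950, ATCG01180, ATCG00920 and ATCG01210 held 521712 of the 620420 member counts, or 84.1%, and the other 107 members held 98708. The 4 fell into 2 pairs with nearly equal counts: the ratio of ATCG00950 to ATCG01180 ran from 0.971 to 1.01 over 28 libraries, and that of ATCG00920 to ATCG01210 from 0.964 to 1.02. Each pair is therefore taken as 1 measurement with an uncertain division between its rows, since reads of near-identical copies could be split between them, which was not tested. ATCG01310 and ATCG00830 also paired, with a ratio of ATCG00830 to ATCG01310 of 0.843 to 1.17. Further rows had near-equal counts, such as ATCG00960 and ATCG01170 (1552 and 1534 over all libraries) and ATCG00940 and ATCG01190 (947 and 933). Rows of such pairs are counted separately in all tallies and medians of members below, so some measurements may enter more than once. The 2 abundant pairs did not keep a fixed proportion to each other: the first pair held 1.42 to 4.36 times the counts of the second over 30 libraries (median 2.37).

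The share of a library's counts in the 107 less abundant members was lower in the recovery libraries, from plants heated for 22 h, than in the heat shock libraries, from plants heated for 11 h or less. It was 0.0332 to 0.0590% (median 0.0430%) in the 10 recovery libraries outside WT R-3, against 0.0863 to 0.236% (median 0.149%) in the 18 heat shock libraries, with no overlap. In AhHAB4-PAI-1 OE the mean share was 0.173% ± 0.0426 for HS-1, 0.173% ± 0.0265 for HS-5, 0.194% ± 0.00811 for HS-11, 0.0425% ± 0.0110 for R-1 and 0.0545% ± 0.00646 for R-3 (SD, n = 2 each). In Ah2880 OE it was 0.0997% ± 0.0189, 0.175% ± 0.0867, 0.111% ± 0.0265, 0.0410% ± 0.000964 and 0.0359% ± 0.00387 at the same stages, and in WT it was 0.150% ± 0.0466, 0.173% ± 0.0109, 0.136% ± 0.0106 and 0.0447% ± 0.000522 from HS-1 to R-1. The WT R-3 libraries had 0.0384% and 0.0296%, from 18 and 15 counts. With 2 libraries against 2, the smallest two-sided p of an exact permutation test is 0.333, so none was run on the shares.

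**Figure D1:**
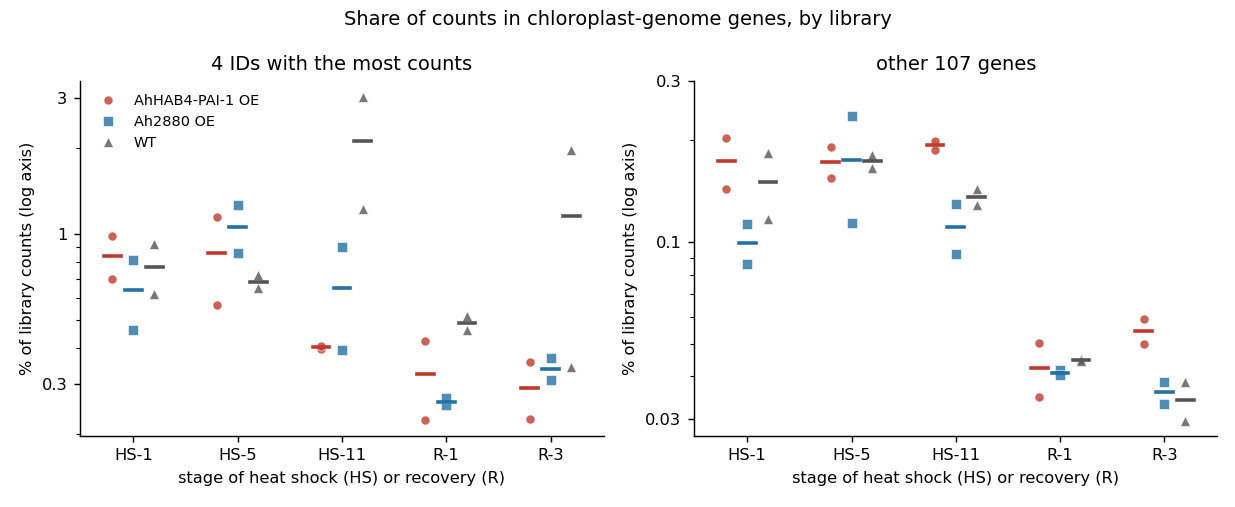
Percent of each library's counts in the 4 most counted chloroplast IDs (left) and in the other 107 members (right), on log axes with separate ranges, by stage of heat shock (HS) or recovery (R) and line. Points are libraries and bars are means of 2. On the right all heat shock libraries lie at 0.0863% or above and all recovery libraries at 0.0590% or below, while on the left the WT HS-11 and WT R-3 libraries spread widely.

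The share of the 4 abundant IDs did not follow the same course, and its replicates were farther apart. At HS-11 it was 0.398% and 0.407% in AhHAB4-PAI-1 OE and 0.396% and 0.903% in Ah2880 OE, against 3.01% and 1.22% in WT, so that both OE lines lay below both WT libraries. At R-1 it was 0.225% and 0.423% in AhHAB4-PAI-1 OE and 0.254% and 0.267% in Ah2880 OE, against 0.518% and 0.464% in WT. Again there was no overlap. At HS-5, by contrast, Ah2880 OE lay above WT, at 0.859% and 1.27% against 0.647% and 0.720%. The AhHAB4-PAI-1 OE libraries overlapped those of WT at HS-5, and both OE lines did so at HS-1 and R-3. The higher replicate exceeded the lower by a median of 1.48-fold and at most 2.46-fold over the 14 combinations outside WT R-3, and by 5.73-fold in WT R-3 (1.97% and 0.343%). For the other 107 members the median was 1.21-fold and the highest 2.08-fold, in Ah2880 OE at HS-5. Mitochondrial-genome rows, the other organelle set, differed between replicates by at most 1.41-fold, and their share ran from 0.335 to 1.08% in heat shock libraries and from 0.0388 to 0.259% in recovery libraries outside WT R-3.

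Each member was then tested in 1 fit over all 30 libraries (edgeR's quasi-likelihood test, with Benjamini-Hochberg adjustment over all 19761 genes tested and called at an adjusted p under 0.01). Both OE lines were set against the same WT libraries, and consecutive stages share a stage, so their counts of calls are not independent. In what follows, the percentages beside a count of members are the shares of all tested genes called in that comparison and direction.

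In the fit with TMM, more members were called at R-1 over HS-11 than at any other step between stages, in each line. The same ranking held for all genes. Of the tested members, 65.1% were called there in AhHAB4-PAI-1 OE, 39.8% in Ah2880 OE and 60.2% in WT. The shares of all genes were 48.9%, 51.6% and 55.5%, so the members lay below all genes in Ah2880 OE. The step from HS-11 to R-1 joins the longer heating of the R-1 plants, their day at 22 °C and the change of light. No library lies between them. At R-1 over HS-11, 49 of the 83 tested members fell and 5 rose in AhHAB4-PAI-1 OE (24.0% of all genes fell and 24.9% rose), 32 fell and 1 rose in Ah2880 OE (29.1% and 22.4%), and 48 fell and 2 rose in WT (25.3% and 30.2%). The median log2 fold change of the members was -1.74 in AhHAB4-PAI-1 OE, -1.94 in Ah2880 OE and -2.11 in WT, beside 0.01, -0.14 and 0.32 over all genes. In Ah2880 OE, 9 members were at 0 in one of the groups, and with those set at the bound that 3 counts per group allow its median was -1.52. With library totals in place of TMM, which shifts the step by 0.03 in AhHAB4-PAI-1 OE, 0.59 in Ah2880 OE and 0.87 in WT on the log2 scale, the split was 45 lower and 5 higher, 19 and 3, and 26 and 8 in these lines. Leaving out 1 library at a time gave 28 to 52 calls in AhHAB4-PAI-1 OE, 20 to 29 in Ah2880 OE and 33 to 43 in WT, the fewest without R-1 replicate 2 in each OE line and without HS-11 replicate 2 in WT.

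In all 3 lines, 24 of 83 members fell at this step (8.76% of all genes), and 59 fell in at least 1 (45.6%). By alternatives chosen after seeing the data, the 24 became 14 with library totals, 18 by DESeq2 and 15 without Ah2880 OE R-1 replicate 2. As a description of these 24, which the calls themselves selected, their log2 fold changes ran from -4.95 to -1.29 in AhHAB4-PAI-1 OE (median -2.78) and from -4.44 to -1.38 in WT (median -3.02), and in Ah2880 OE from -6.10 to -1.88 (median -3.13) over the 22 that had a count at R-1. The 24 included ATCG00490, ATCG00070, ATCG00430 and ATCG01310 among the members with a product, of which ATCG00430 and ATCG01310 did not pass in WT with library totals (adjusted p = 0.0444 and 0.0788).

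**Figure D2:**
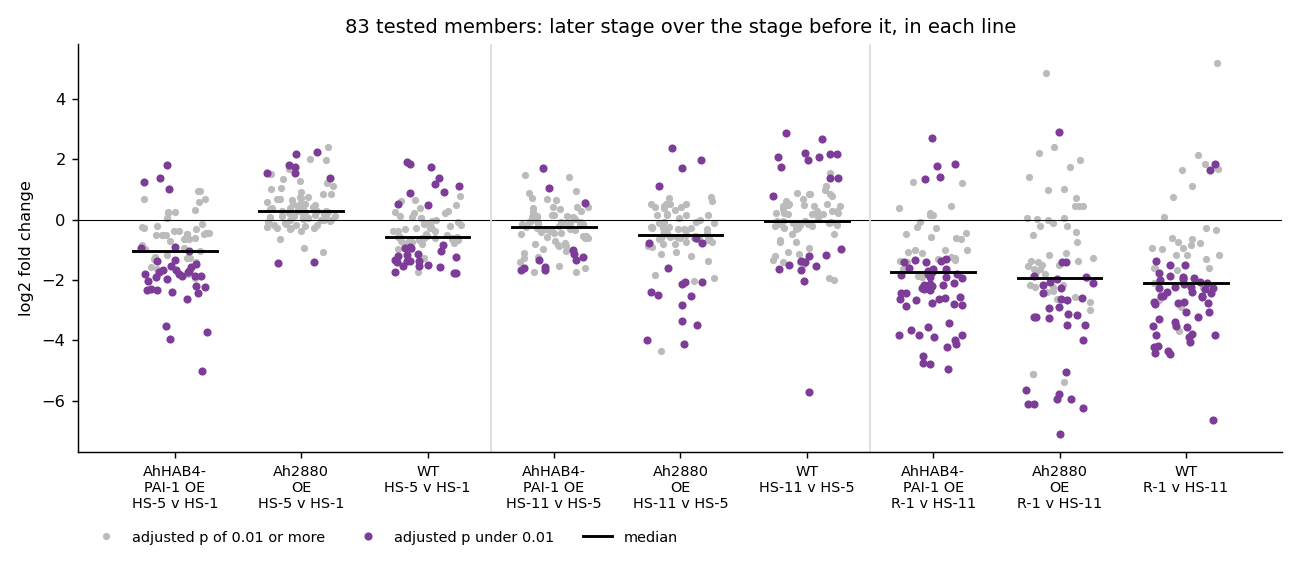
Log2 fold change of each of the 83 tested members for a stage over the stage before it, in AhHAB4-PAI-1 OE, Ah2880 OE and WT. Purple points passed the adjusted p under 0.01, gray points did not, and bars are medians. At R-1 over HS-11 the medians are -1.74, -1.94 and -2.11, and at HS-5 over HS-1 they are -1.03, 0.28 and -0.57.

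The large subunit of Rubisco, the enzyme that fixes CO2, is made from ATCG00490. The AhHAB4-PAI-1 OE libraries had 182 and 426 CPM for HS-1, 97.4 and 155 for HS-5, 105 and 81.6 for HS-11, 14.1 and 16.4 for R-1 and 37.9 and 36.9 for R-3. The Ah2880 OE libraries had 139 and 155 CPM for HS-1, 153 and 135 for HS-5, 64.5 and 107 for HS-11, 21.4 and 14.6 for R-1 and 28.9 and 21.6 for R-3. The WT libraries had 250 and 204 CPM for HS-1, 101 and 101 for HS-5, 58.6 and 103 for HS-11 and 22.0 and 12.6 for R-1, with 2 counts and 0 counts for R-3. All lines were lowest at R-1 among the stages up to then, and no difference between an OE line and WT passed the test for this gene. At R-1 over HS-11 it fell by 2.57 ± 0.27 on the log2 scale in AhHAB4-PAI-1 OE (SE; adjusted p = 4.06e-12), by 2.27 ± 0.36 in Ah2880 OE (2.92e-07) and by 2.31 ± 0.29 in WT (7.52e-10). In AhHAB4-PAI-1 OE it rose at R-3 over R-1 by 1.25 ± 0.29 (0.000733), although without R-1 replicate 2 the adjusted p was 0.0275. During heat shock it fell at HS-5 over HS-1 in WT by 1.17 ± 0.19 (1.15e-06) and in AhHAB4-PAI-1 OE by 1.33 ± 0.22 (1.91e-06). The size of both falls depended on the scaling, with -0.57 (adjusted p = 0.00951) in WT and -0.71 (0.00717) in AhHAB4-PAI-1 OE by library totals. Without AhHAB4-PAI-1 OE HS-1 replicate 2 the value in that line was only -0.55.

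Photosystem II splits water in the thylakoid membrane, and its K protein, a small subunit of the core made from ATCG00070, rose between HS-1 and HS-5 in each line. The AhHAB4-PAI-1 OE libraries had 42.8 and 41.2 CPM for HS-1, 109 and 109 for HS-5, 151 and 137 for HS-11 and 3.36 and 5.06 for R-1. In Ah2880 OE it was at 16.2 and 16.4, 51.2 and 62.7, 58.0 and 70.8, and 0 and 1.46 CPM at these stages, and in WT at 27.3 and 28.5, 103 and 97.8, 86.9 and 91.9, and 4.08 and 4.12 CPM. Replicates were close, and the stages from HS-1 to HS-5 and from HS-11 to R-1 were far apart in all lines. At HS-5 over HS-1 it rose by 1.38 ± 0.19 in AhHAB4-PAI-1 OE (adjusted p = 4.02e-08), by 1.81 ± 0.19 in Ah2880 OE (9.86e-12) and by 1.84 ± 0.15 in WT (1.3e-15). At R-1 over HS-11 it changed by -4.95 ± 0.21 in AhHAB4-PAI-1 OE (4.46e-28), by -6.10 ± 0.45 in Ah2880 OE (9.38e-18), which rests on 2 counts at R-1, and by -4.44 ± 0.23 in WT (2.65e-24). Compared with WT it was higher in AhHAB4-PAI-1 OE at HS-11 by 0.69 ± 0.15 (5.45e-05) and lower in Ah2880 OE at HS-5, with a difference of -0.81 ± 0.14 (3.72e-06).

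The other members labelled as photosystem II proteins were at low counts, and whether those labels are right was not checked. ATCG00430, annotated as photosystem II reaction center protein G, was at 1.34 and 0.607 CPM at R-1 against 5.53 and 6.50 at HS-11 in AhHAB4-PAI-1 OE, a fall of 2.87 ± 0.57 (adjusted p = 2.47e-05), and at 0.272 and 0.868 against 6.52 and 2.74 CPM in WT, a fall of 2.71 ± 0.84 (0.00403). In Ah2880 OE it had 0 counts at R-1 against 10 at HS-11, at least 2.42-fold lower against a floor of 3 counts over the group. The calls of ATCG00430 were lost in AhHAB4-PAI-1 OE without R-1 replicate 2 (adjusted p = 0.0554), in WT with library totals (0.0444) or without HS-11 replicate 1 (0.105) or R-1 replicate 1 (0.0275), and in Ah2880 OE under most alternatives. ATCG00560, the L protein of photosystem II, was between 0 and 14.7 CPM and passed no test.

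ATP synthase of the thylakoid makes ATP from the proton gradient of photosynthesis. Its subunit from ATCG00480 was higher in AhHAB4-PAI-1 OE than in WT at HS-11. ATCG00480 had 109 and 110 CPM in the HS-1 libraries of AhHAB4-PAI-1 OE, 57.8 and 55.2 in HS-5, 53.4 and 52.0 in HS-11, 10.1 and 9.72 in R-1 and 25.2 and 21.5 in R-3 libraries. The Ah2880 OE libraries had 52.4 and 49.1, 42.1 and 56.1, 9.85 and 14.8, 6.75 and 9.49, and 6.09 and 8.20 CPM at these stages. In WT it was at 88.8 and 70.3, 45.0 and 38.2, 19.5 and 21.9, and 7.34 and 7.38 CPM from HS-1 to R-1. At HS-11 the AhHAB4-PAI-1 OE libraries lay above both WT libraries, by 1.33 ± 0.21 on the log2 scale (adjusted p = 2.73e-07). Between HS-5 and HS-11 this gene fell in Ah2880 OE by 2.05 ± 0.23 (5.49e-11) and in WT by 0.99 ± 0.22 (0.000102), whereas the step in AhHAB4-PAI-1 OE exceeded that in WT by 0.89 ± 0.27 (0.0042), a call lost without WT HS-5 replicate 1, either WT HS-11 library or AhHAB4-PAI-1 OE HS-5 replicate 2 (0.0142 to 0.0238). At R-3 over R-1 it rose in AhHAB4-PAI-1 OE by 1.27 ± 0.21 (4.5e-06).

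ATCG00470, annotated with ATCG00480 as an ATP synthase subunit, was lower in counts. It was at 15.7 and 22.5 CPM in AhHAB4-PAI-1 OE at HS-11 against 6.52 and 7.54 in WT, a difference of 1.40 ± 0.34 (adjusted p = 0.000397, or 0.0144 without WT HS-11 replicate 2). It was also higher at HS-1, at 50.2 and 51.7 CPM in AhHAB4-PAI-1 OE against 29.6 and 29.6 in WT, by 0.79 ± 0.21 (0.00486), a call lost without any 1 of the 4 libraries and with library totals (0.0509). ATCG00150, a subunit of the membrane part of the enzyme, was at 16.2 and 12.6 CPM in AhHAB4-PAI-1 OE at HS-1 and at most 8.79 CPM in any other library of any line. It fell at HS-5 over HS-1 in AhHAB4-PAI-1 OE by 1.39 ± 0.42 (0.00814), a call lost with library totals (0.136), with no filter on low counts (0.0323), by DESeq2 (0.0189) and without any 1 of the 4 libraries (0.0331 to 0.0502). ATCG00150 also fell in AhHAB4-PAI-1 OE at R-1 over HS-11, by 1.92 ± 0.47 (0.000453, or 0.0299 without R-1 replicate 2), and in Ah2880 OE it had 0 counts at R-1 against 9 at HS-11, at least 2.18-fold lower.

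ATCG00530, related to CemA, a protein of the chloroplast envelope linked to proton extrusion, was at 23.6 and 27.2 CPM in AhHAB4-PAI-1 OE at HS-1 against 9.11 and 7.40 in WT, higher by 1.66 ± 0.33 (adjusted p = 0.000138, or 0.041 without AhHAB4-PAI-1 OE HS-1 replicate 2). At HS-5 it was at 9.05 and 7.44 CPM in AhHAB4-PAI-1 OE against 6.40 and 4.47 in WT, which did not pass the test. ATCG00670, the plastid-encoded subunit of the CLP protease, which degrades stromal proteins, was lower in AhHAB4-PAI-1 OE than in WT at HS-11. It was then at 4.52 and 2.76 CPM in AhHAB4-PAI-1 OE and at 4.38 and 4.67 in Ah2880 OE, against 11.9 and 14.4 in WT. The difference was -1.84 ± 0.39 for AhHAB4-PAI-1 OE (5.49e-05, or 0.0177 without WT HS-11 replicate 2), while for Ah2880 OE it was -1.57 ± 0.47 and did not pass (0.0167). In AhHAB4-PAI-1 OE ATCG00670 rose at R-3 over R-1, to 9.53 and 13.8 CPM against 6.05 and 3.44, by 1.43 ± 0.33 (0.000708), and without R-1 replicate 2 the value was 0.85 (adjusted p = 0.259), the call also being lost without R-3 replicate 2 (0.0102). The log2 change of ATCG00670 at R-1 over HS-11 did not pass the test in any line, at 0.14 in AhHAB4-PAI-1 OE (adjusted p = 0.782), 0.46 in Ah2880 OE (0.5) and -0.64 in WT (0.101).

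Ribosomal protein L2, part of the large subunit of the plastid ribosome, is made from ATCG01310, whose counts cannot be separated from those of ATCG00830. ATCG01310 had 96.0 and 85.2 CPM in the HS-1 libraries of AhHAB4-PAI-1 OE, 98.1 and 112 in HS-5, 86.6 and 103 in HS-11, 16.8 and 12.3 in R-1 and 14.1 and 19.5 in R-3 libraries. In Ah2880 OE it was at 42.4 and 45.5, 45.2 and 50.4, 28.4 and 35.8, 2.25 and 4.38, and 3.05 and 5.61 CPM at these stages, and in WT at 56.6 and 58.9, 83.5 and 80.2, 20.6 and 28.8, and 8.15 and 11.1 CPM from HS-1 to R-1. In AhHAB4-PAI-1 OE the heat shock stages lay close together, whereas in WT HS-11 lay well below HS-5. The Ah2880 OE libraries lay below both WT libraries at HS-5 (45.2 and 50.4 against 83.5 and 80.2 CPM) and overlapped them at HS-11. At HS-1 ATCG01310 was called higher in AhHAB4-PAI-1 OE than in WT, by 0.63, a call lost with library totals (0.41, adjusted p = 0.0756). At HS-11 it was higher in AhHAB4-PAI-1 OE than in WT by 1.89 ± 0.20 (adjusted p = 2.78e-12), a call that held with each library left out in turn. The step from HS-5 to HS-11, a fall of 1.68 ± 0.20 in WT (1.99e-10), was smaller in AhHAB4-PAI-1 OE by 1.53 ± 0.25 (6.24e-07) and in Ah2880 OE by 1.08 ± 0.29 (0.0041, or 0.0113 to 0.0395 without replicate 1 of WT HS-5, Ah2880 OE HS-5 or WT HS-11, or replicate 2 of Ah2880 OE HS-11). At R-1 ATCG01310 was lower in Ah2880 OE than in WT, with a log2 difference of -1.45 ± 0.46 (0.00943), from 2 and 6 counts, and this did not hold with no filter on low counts (0.0407), when the WT R-3 libraries were dropped (0.0227), by DESeq2 (0.0202) or without WT R-1 replicate 2 or either Ah2880 OE R-1 library (0.0433 to 0.104).

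**Figure D3:**
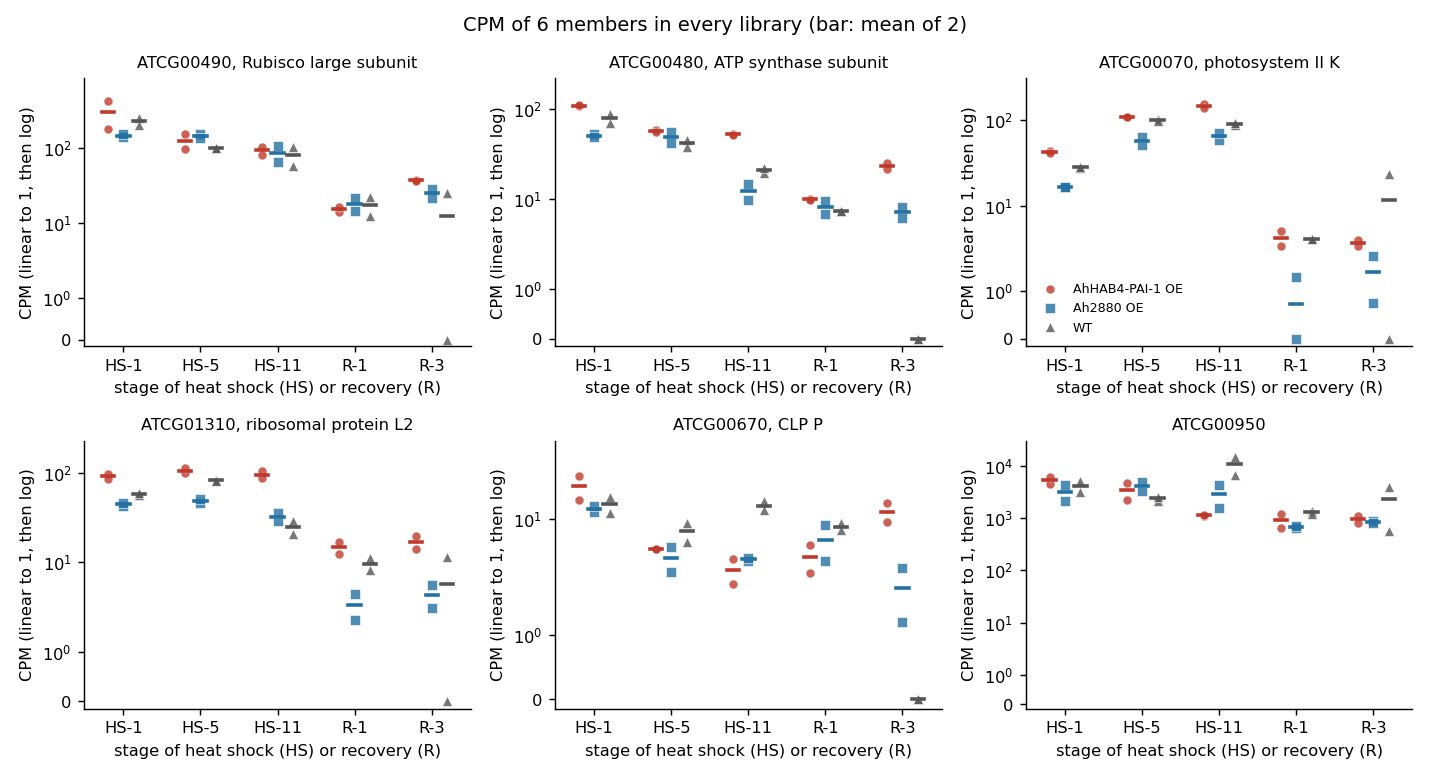
TMM-adjusted CPM of 6 members in every library by stage and line, on an axis that is linear up to 1 CPM and logarithmic above it. Points are libraries and bars are means of 2. ATCG00070 reaches 151 CPM at HS-11 in AhHAB4-PAI-1 OE and lies at 5.06 CPM or below in all R-1 libraries, and ATCG00950 stands at 14596 and 6679 CPM in the WT HS-11 libraries.

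Each of the 4 abundant IDs had its highest group mean in WT at HS-11. ATCG00950 had 4361 and 6116 CPM in the HS-1 libraries of AhHAB4-PAI-1 OE, 2163 and 4559 in HS-5, 1113 and 1121 in HS-11, 641 and 1210 in R-1 and 1083 and 792 in R-3 libraries. Values in Ah2880 OE were 4224 and 2153, 3298 and 4936, 1574 and 4171, 633 and 715, and 891 and 785 CPM at these stages. In WT it was at 5136 and 3176, 2153 and 2564, 14596 and 6679, and 1362 and 1206 CPM from HS-1 to R-1. The WT HS-11 libraries stood above all others, and the first of them above the second. ATCG00950 was lower than in WT at HS-11, with a log2 difference of -3.25 ± 0.36 in AhHAB4-PAI-1 OE (adjusted p = 3.96e-11) and of -1.89 ± 0.35 in Ah2880 OE (5.85e-05). Without WT HS-11 replicate 1, which held 3.01% of its counts in the 4 IDs, these were -2.58 (7.3e-08) and -1.22 (adjusted p = 0.0275), so the call of ATCG00950 in Ah2880 OE rests on that library. That call was also lost without Ah2880 OE HS-11 replicate 1 (0.0212) and by DESeq2 (0.014). In WT ATCG00950 rose at HS-11 over HS-5 by 2.17 ± 0.35 (4.08e-07), or by 1.50 (0.000733) without that library, and fell at R-1 over HS-11 by 3.05 ± 0.36 (1.7e-10).

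ATCG00920, of the second pair, was at 537 and 562 CPM in AhHAB4-PAI-1 OE and 734 and 988 in Ah2880 OE at HS-11, against 5739 and 1924 in WT. It was lower in both, with a log2 difference of -2.80 ± 0.30 in AhHAB4-PAI-1 OE (adjusted p = 1.32e-11) and of -2.15 ± 0.30 in Ah2880 OE (2.71e-07), and without WT HS-11 replicate 1 the values were -1.80 (4.38e-07) and -1.16 (0.00506). In AhHAB4-PAI-1 OE ATCG00920 fell at HS-11 over HS-5 by 1.35 ± 0.29 (0.000247), which became -0.69 (0.143) without HS-5 replicate 2 and was not called by DESeq2 (0.0682). At R-3 it was called lower in AhHAB4-PAI-1 OE than in WT (-1.45 ± 0.39, 0.00389), although the groups overlapped, at 543 and 297 against 1912 and 449 CPM, and without WT R-3 replicate 1 the value was -0.07 (0.946). The call was also lost by DESeq2 (0.0163) and without AhHAB4-PAI-1 OE R-3 replicate 2 (0.0488).

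Between the OE lines and WT at one stage, the members moved in different ways from stage to stage. At HS-1, 21 of 83 members were higher in AhHAB4-PAI-1 OE and 0 lower (6.78% and 6.75% of all genes), with 39 higher and 0 lower with unadjusted p under 0.05, and DESeq2 called 15 higher and 0 lower. In Ah2880 OE at HS-1, 0 were higher and 2 lower (2.98% and 1.51%), with 0 higher and 39 lower with unadjusted p under 0.05, and DESeq2 called 0 higher and 3 lower. The median log2 difference from WT was 0.63 in AhHAB4-PAI-1 OE, where 74 of 83 members were above 0, and -0.71 in Ah2880 OE, where 81 of 83 were below 0, beside -0.05 and -0.02 over all genes. Library totals in place of TMM moved the first by -0.22, leaving 10 calls, and leaving out 1 library left 6 to 22, 6 without AhHAB4-PAI-1 OE HS-1 replicate 2 and 7 without WT HS-1 replicate 2. For Ah2880 OE at HS-1, 0 calls were left without WT HS-1 replicate 1 or either Ah2880 OE library.

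**Figure D4:**
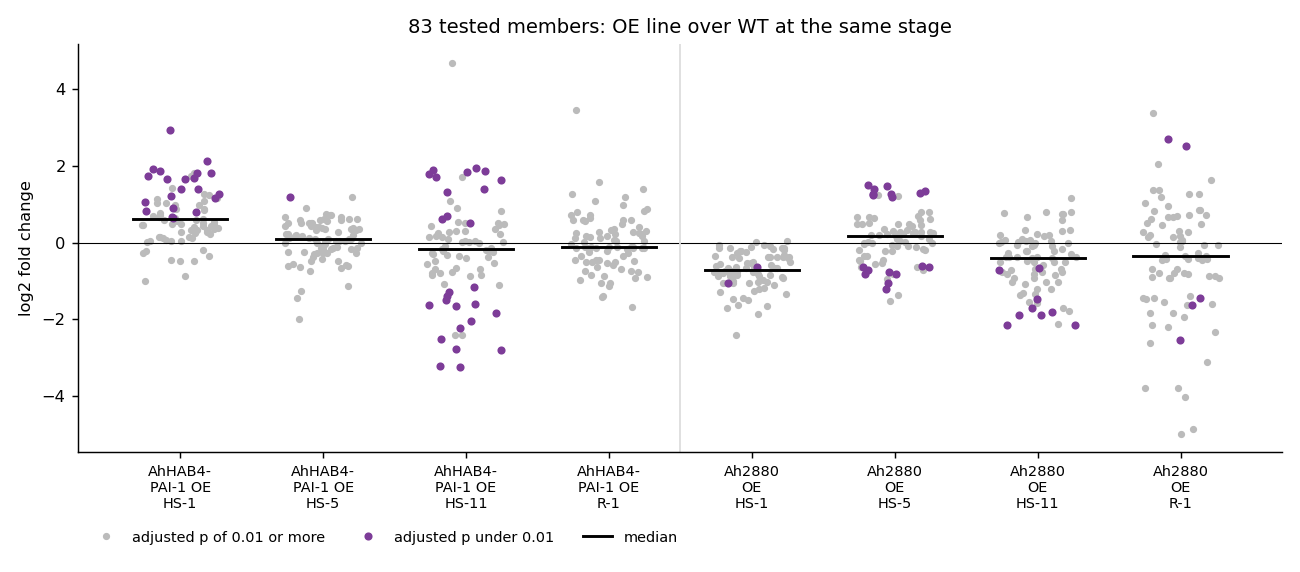
Log2 fold change of each of the 83 tested members for AhHAB4-PAI-1 OE over WT and Ah2880 OE over WT at HS-1, HS-5, HS-11 and R-1. Purple points passed the adjusted p under 0.01, gray points did not, and bars are medians. At HS-1 the medians lie at 0.63 and -0.71, and at HS-11 in AhHAB4-PAI-1 OE 12 members lie above and 15 below 0 past the threshold.

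At HS-5, 1 member was higher and 0 lower in AhHAB4-PAI-1 OE than in WT (8.64% and 8.63% of all genes), with 13 higher and 3 lower with unadjusted p under 0.05 and 1 and 0 by DESeq2. In Ah2880 OE 9 were higher and 9 lower (12.1% and 9.93%), but DESeq2 called 0 higher and 9 lower, library totals gave 7 and 11, and 7 calls were left without WT HS-5 replicate 1 and 10 without Ah2880 OE HS-5 replicate 2. At HS-11, 12 were higher and 15 lower in AhHAB4-PAI-1 OE (29.5% and 23.6%), which is below the share of all genes in either direction, and with library totals, which shift this comparison by 0.73, the split was 18 higher and 10 lower. In Ah2880 OE at HS-11, 0 were higher and 9 lower (3.88% and 4.97%), with 1 higher and 18 lower with unadjusted p under 0.05 and 0 and 6 by DESeq2. The 4 abundant IDs were lower in both OE lines, and outside them 12 were higher and 11 lower in AhHAB4-PAI-1 OE and 0 and 5 in Ah2880 OE. Without WT HS-11 replicate 1, or without Ah2880 OE HS-11 replicate 1, 5 calls were left in Ah2880 OE.

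During recovery few members were called against WT. None of the 4 abundant IDs was called at R-1 in either OE line. Counts of the less abundant members were low, and the part of this in the few calls was not tested. At R-1 the 107 less abundant members together held 428 and 1996 counts in AhHAB4-PAI-1 OE. They held 286 and 421 in Ah2880 OE, and 1260 and 1524 in WT. At R-1, 0 members were called in AhHAB4-PAI-1 OE (7.11% of all genes in either direction), with 10 with unadjusted p under 0.05, 0 by DESeq2 and 6 with no filter on low counts. In Ah2880 OE 2 were higher and 3 lower at R-1 (11.1% and 18.0%), DESeq2 called 2 and 1, and without Ah2880 OE R-1 replicate 1 no call was left. Leaving out any other R-1 library of these lines left 2 or 3. At R-3, 4 members in AhHAB4-PAI-1 OE (16.2%) and 3 in Ah2880 OE (5.22%) were called, all lower than in the shallow WT R-3 libraries.

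Within heat shock, the steps were taken line by line, and the difference between lines was not tested for HS-5 over HS-1. At HS-5 over HS-1, 4 members rose and 33 fell in AhHAB4-PAI-1 OE (8.67% and 13.4% of all genes), 7 rose and 2 fell in Ah2880 OE (16.0% and 17.4%), and 10 rose and 21 fell in WT (17.9% and 20.9%). The directions depended on the scaling: library totals, which shift this step by 0.62 in AhHAB4-PAI-1 OE, 0.46 in Ah2880 OE and 0.60 in WT, gave 9 higher and 10 lower, 21 and 0, and 15 and 4, and DESeq2 gave 10 and 7 in WT. At HS-11 over HS-5, 3 rose and 9 fell in AhHAB4-PAI-1 OE (8.00% and 11.7%), 4 rose and 15 fell in Ah2880 OE (19.3% and 26.3%), and 12 rose and 11 fell in WT (21.6% and 27.9%). There library totals gave 10 higher and 4 lower in AhHAB4-PAI-1 OE and 11 and 20 in WT, and DESeq2 gave 4 and 0 in AhHAB4-PAI-1 OE. Single libraries moved several of these counts. At HS-5 over HS-1, 14 calls were left in AhHAB4-PAI-1 OE without HS-1 replicate 2, 22 without HS-5 replicate 1 and 24 without HS-5 replicate 2, 13 in WT without HS-1 replicate 1 and 15 without HS-5 replicate 1, while Ah2880 OE had 19 without HS-5 replicate 1. At HS-11 over HS-5, 1 call was left in AhHAB4-PAI-1 OE without HS-5 replicate 2, 9 in Ah2880 OE without HS-11 replicate 1 and 11 without HS-5 replicate 2, and 15 in WT without HS-11 replicate 1.

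From R-1 to R-3, 3 members rose and 0 fell in AhHAB4-PAI-1 OE (10.9% and 6.67%), namely ATCG00490, ATCG00480 and ATCG00670, with 10 higher and 1 lower with unadjusted p under 0.05 and the same count of calls by DESeq2. In Ah2880 OE 0 members were called (0% of all genes), with 5 with unadjusted p under 0.05 and 0 by DESeq2. In WT 2 were called (11.9%), both at higher values in the shallow R-3 libraries.

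The difference between an OE line and WT in a step was tested as such. For HS-11 over HS-5, the step was higher than in WT for 6 members and lower for 12 in AhHAB4-PAI-1 OE (27.3% and 20.2% of all genes) and higher for 2 and lower for 10 in Ah2880 OE (7.23% and 6.34%). With library totals these splits were 16 and 7, and 6 and 8, and by DESeq2 8 and 10, and 2 and 4. All 4 abundant IDs were among the lower ones in both OE lines, with ATCG00950 at -3.76 ± 0.49 in AhHAB4-PAI-1 OE (adjusted p = 3.61e-09) and -2.70 ± 0.48 in Ah2880 OE (2.28e-05, or 0.0123 by DESeq2), and ATCG01310 was among the higher ones in both. For R-1 over HS-11, the step was higher for 7 and lower for 4 members in AhHAB4-PAI-1 OE (20.3% and 23.9%), with 4 and 13 by library totals and 4 and 4 by DESeq2, and 5 calls were left without AhHAB4-PAI-1 OE R-1 replicate 2. The step in Ah2880 OE was higher for 0 and lower for 1, ATCG01310 (5.89% and 12.5%), with 13 higher and 4 lower with unadjusted p under 0.05 and 0 in either direction by DESeq2. That call of ATCG01310 (-1.76) was lost with no filter on low counts (0.0305), without the WT R-3 libraries (0.0195) and without any 1 of 5 libraries, namely WT HS-11 replicate 1, Ah2880 OE HS-11 replicate 2, WT R-1 replicate 2 and either Ah2880 OE R-1 library (0.0278 to 0.0686).

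Nuclear genes of plastid transcription and RNA turnover are the other part of this pathway, and 26 of them in 4 lists were all tested. Both phage-type polymerases fell at R-1 over HS-11 in each line, and 1 of them also rose at both steps within heat shock. AT5G15700, a nuclear-encoded plastid polymerase that is also found in mitochondria, had 7.38 and 4.19 CPM in the HS-1 libraries of AhHAB4-PAI-1 OE, 20.9 and 22.3 in HS-5, 41.6 and 39.8 in HS-11 and 14.8 and 17.2 in R-1. In Ah2880 OE AT5G15700 was at 11.0 and 8.89, 22.3 and 31.6, 65.1 and 66.1, and 24.8 and 15.3 CPM, and in WT at 15.3 and 13.1, 36.4 and 36.2, 71.7 and 75.4, and 16.0 and 20.0 CPM. It rose at HS-5 over HS-1 and at HS-11 over HS-5 and fell at R-1 over HS-11 in all 3 lines. Its fall at R-1 was 1.30 ± 0.19 in AhHAB4-PAI-1 OE (adjusted p = 5.71e-08), 1.77 ± 0.25 in Ah2880 OE (1.51e-08) and 2.02 ± 0.20 in WT (5.44e-13). SCA3, also a phage-type polymerase, fell at that step by 1.82 ± 0.14, 1.20 ± 0.17 and 1.32 ± 0.14 in these lines. Within heat shock SCA3 rose only in AhHAB4-PAI-1 OE at HS-5 over HS-1, by 0.89 (adjusted p = 1.3e-05), and in Ah2880 OE at HS-11 over HS-5, by 0.42 (0.00976), and its other 4 log2 changes did not pass, at -0.04 to 0.36.

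The 12 listed PEP-associated proteins, which bind the polymerase core, were each set against WT at R-1, and the OE lines were not tested against each other. In Ah2880 OE all 12 were lower than in WT at R-1 (18.0% of all genes; median -1.77, beside -0.27 over all genes), and in AhHAB4-PAI-1 OE 0 of 12 were called (median -0.06, beside 0.02), with PDE312 the lowest at -0.55 (adjusted p = 0.0131). FLN1, a fructokinase-like protein of the complex, was at 15.8 and 7.30 CPM in Ah2880 OE at R-1 against 75.0 and 74.2 in WT, a log2 difference of -2.80 ± 0.24 (3.62e-14), and in AhHAB4-PAI-1 OE at 57.8 and 64.8 CPM, with a difference of -0.26 (0.246). PTAC12 was at 3.38 and 14.6 CPM in Ah2880 OE against 43.5 and 40.8 in WT (-2.05 ± 0.27, 1.43e-08), and PTAC7 at 11.3 and 15.3 against 53.5 and 44.3 (-1.83 ± 0.24, 9.49e-09). The same alternatives as for the members, chosen after seeing the data, gave 7 to 12 of 12, the fewest without Ah2880 OE R-1 replicate 2. At R-1 over HS-11, 11 of 12 fell in Ah2880 OE (29.1% of all genes; median -1.92), 3 fell in AhHAB4-PAI-1 OE (24.0%; median -0.12), and 5 fell and 2 rose in WT (25.3% and 30.2%; median -0.27), and the step of 11 of 12 was lower in Ah2880 OE than in WT by the test of the difference (12.5% of all genes). Marker genes moved in the same comparisons. In Ah2880 OE against WT at R-1, of the 5 leaf markers LHCB2.1 was higher (0.77) and CAB1 (-0.48) and CA1 lower, CA1 at no more than 29.9 CPM in both libraries against 213 and 212 (-2.89), and the root gene PYK10 was higher, at 158 and 145 against 63.3 and 59.7 CPM (1.29). At R-1 over HS-11 in Ah2880 OE, 4 of 5 leaf markers fell (29.1% of all genes), with CA1 at -5.79, while LHCB2.1 (1.88) and PYK10 (1.40) rose. At that step 4 of 5 leaf markers also fell in WT (25.3%), the lowest at -3.28, and 2 of 5 fell in AhHAB4-PAI-1 OE (24.0%). PYK10 rose in AhHAB4-PAI-1 OE too (2.34) and did not pass in WT (0.17). The part of these shifts in the list's values was not tested. Of the chloroplast-genome members, 2 of 83 were higher and 3 lower in Ah2880 OE than in WT at R-1 (11.1% and 18.0% of all genes). Outside the 4 abundant IDs their counts were low there, and the part of this in the calls was not tested.

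**Figure D5:**
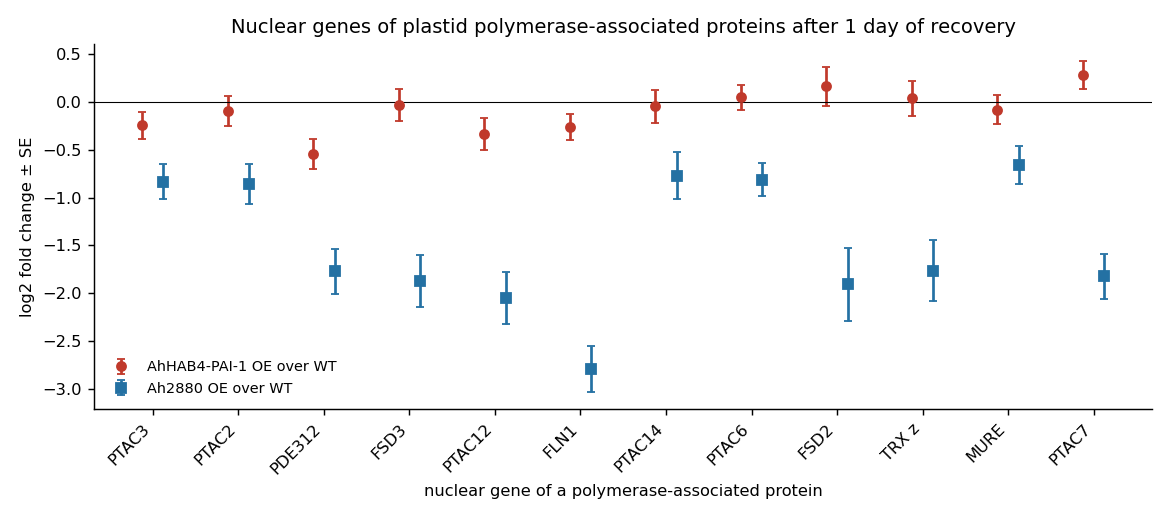
Log2 fold change at R-1 of the 12 listed nuclear genes of PEP-associated proteins, in AhHAB4-PAI-1 OE over WT and Ah2880 OE over WT. Points are fitted values and bars are standard errors. All 12 values of Ah2880 OE lie below 0 and FLN1 is the lowest at -2.80, while those of AhHAB4-PAI-1 OE lie between -0.55 and 0.29.

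Sigma factors, which direct PEP to promoters, moved in both directions. Of the 6 listed, 2 were higher and 1 lower in AhHAB4-PAI-1 OE than in WT at HS-11 (29.5% and 23.6% of all genes), which is near the share of all genes, and 0 were higher and 4 lower in Ah2880 OE at HS-5 (12.1% and 9.93%). SIGE was at 98.8 and 109 CPM in AhHAB4-PAI-1 OE at HS-5 and at 13.2 and 14.7 in Ah2880 OE, against 41.8 and 46.5 in WT, higher by 1.23 ± 0.13 in AhHAB4-PAI-1 OE (adjusted p = 1.01e-10) and lower, at -1.65 ± 0.16, in Ah2880 OE (4.65e-12). At R-1 the order of SIGE was the reverse, with 51.1 and 50.8 CPM in AhHAB4-PAI-1 OE and 175 and 149 in Ah2880 OE against 81.2 and 79.4 in WT (-0.66 ± 0.13, 0.000182, and 1.00 ± 0.13, 3.75e-09). At HS-11 SIG4 was at 43.4 and 47.3 CPM in AhHAB4-PAI-1 OE against 7.60 and 6.86 in WT, higher by 2.66 ± 0.28 (4.84e-12). Of the 6 genes for plastid RNA turnover, 4 were lower in Ah2880 OE than in WT at R-1 (18.0% of all genes) and 4 fell in that line at R-1 over HS-11 (29.1%), while 2 were higher than WT in AhHAB4-PAI-1 OE at R-1 (4.66%). Among them CSP41A, a ribonuclease of plastid rRNA maturation, was at 75.4 and 84.7 CPM in Ah2880 OE against 146 and 136 in WT at R-1 (-0.80 ± 0.15, 2.54e-05), and in AhHAB4-PAI-1 OE it was higher, at 241 and 215 CPM (0.69 ± 0.12, 5.34e-05).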

How the data were processed

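Leaves of AhHAB4-PAI-1 OE, Ah2880 OE and WT were profiled by RNA-seq in 15 combinations of line and stage with 2 libraries each. The deposited files hold whole-number read counts per gene, which the authors made by aligning reads to TAIR10 with Bowtie2 2.2.5, handling them with Samtools 1.6, removing duplicates with Picard 2.0.1 and counting with Subread 2.0.0. Duplicate removal limits the counts of the most abundant RNAs. Strand setting and annotation release are not given in the sources used here. The authors tested with edgeR 3.40.0 at a false discovery rate of 1%.

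Here genes were filtered with filterByExpr, scaled by TMM and tested with glmQLFit and glmQLFTest of edgeR 4.0.16 (R 4.3.3), with 1 mean for each of the 15 combinations over all 30 libraries, and the fit was tested on simulated data. Adjustment covered the 19761 genes tested. Replicates were pools of leaves from several plants. Alternatives were DESeq2 1.42.0, no filter, library totals, nuclear genes only for scaling, a replicate block, no WT R-3 libraries and each library left out. Depth ran from 46825 to 5739590 counts. The SE of a log2 fold change comes from the fit over all 30 libraries, which shares the spread between groups and genes. It is not the spread of the 2 libraries of a group, whereas the SDs of the shares are.

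Members and lists were chosen with earlier results of these data known. The naming rule took a fixed set of plastid genes by symbol, plus the 2 highest and 2 lowest called members of each comparison with a mean of at least 20 counts in the higher group and no overlap between libraries. The files do not pair those symbols with IDs, so members that the study or RefSeq notes give a product were named in their place. The 4 abundant IDs, ATCG00830 and the other IDs given as near-equal pairs were added after their values were seen. The lists held 6 sigma factors, 2 phage-type polymerases, 12 PEP-associated proteins and 6 RNA turnover genes, with leaf, root and seed markers. Nuclear symbols are those of RefSeq.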

Additional observations from a re-analysis of the deposited data

Results flagged for a closer look

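The step from HS-5 to HS-11 or from HS-11 to R-1 differed between an OE line and WT, by the test of the difference itself, for these named members. For HS-11 over HS-5, the AhHAB4-PAI-1 OE step minus the WT step was -3.76 for ATCG00950, -3.72 for ATCG01180, -3.41 for ATCG00920 and -3.40 for ATCG01210 on the log2 scale, and 1.53 for ATCG01310 and 0.89 for ATCG00480. For the same step, Ah2880 OE minus WT was -2.70 for ATCG00950, -2.69 for ATCG01180, -2.62 for ATCG00920 and -2.62 for ATCG01210, and 1.08 for ATCG01310. For R-1 over HS-11, AhHAB4-PAI-1 OE minus WT was 2.79 for ATCG00950, 2.76 for ATCG01180, 2.31 for ATCG00920 and 2.28 for ATCG01210, and -1.41 for ATCG01310, and Ah2880 OE minus WT was -1.76 for ATCG01310. The steps share the HS-11 libraries, so their values of opposite sign are not independent, and the 4 abundant IDs are 2 pairs of near-equal counts. Without WT HS-11 replicate 1, the value of ATCG00950 was -3.09 and 2.12 for the AhHAB4-PAI-1 OE steps and -2.02 for the Ah2880 OE step. Several of these calls did not hold throughout. ATCG01310 at R-1 over HS-11 lost its call in Ah2880 OE with no filter on low counts (adjusted p = 0.0305), without the WT R-3 libraries (0.0195), by DESeq2 (0.0156) and without any 1 of 5 libraries, and in AhHAB4-PAI-1 OE without R-1 replicate 2 of WT (0.013) or of that line (0.0159). For HS-11 over HS-5, ATCG01310 in Ah2880 OE and ATCG00480 in AhHAB4-PAI-1 OE were each lost without any 1 of 4 libraries. By DESeq2 the calls of ATCG00950 (0.0123) and ATCG01180 (0.0114) for HS-11 over HS-5 in Ah2880 OE, and of ATCG00920 (0.0105) and ATCG01210 (0.0128) for R-1 over HS-11 in AhHAB4-PAI-1 OE, were lost.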

How the results depend on the processing

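Counts of members called stayed within 1.5 times for all 26 comparisons with the replicate number as a block and with totals and TMM from nuclear genes only. Replicate numbers did not pair the libraries (median correlation of deviations -0.002 over 105 pairs of groups, 3 of them above 0.1). The block lost 1 call of a named member, ATCG00430 at R-1 over HS-11 in Ah2880 OE (-6.11, adjusted p = 0.0104). With no filter on low counts the count became 6 for AhHAB4-PAI-1 OE v WT at HS-5, 6 at R-1, 18 and 5 for Ah2880 OE v WT at HS-1 and R-3, 17 and 1 for Ah2880 OE at HS-5 v HS-1 and R-3 v R-1, 6 for WT at R-3 v R-1, and 19 and 9 for the difference of the R-1 v HS-11 step in AhHAB4-PAI-1 OE and Ah2880 OE. With library totals it became 10 for AhHAB4-PAI-1 OE v WT at HS-1, 6 for Ah2880 OE v WT at R-3, 19, 21 and 19 for HS-5 v HS-1 in AhHAB4-PAI-1 OE, Ah2880 OE and WT, and 17 and 2 for the difference of the R-1 v HS-11 step. By DESeq2 it became 2 for AhHAB4-PAI-1 OE v WT at R-3, 9 and 3 for Ah2880 OE v WT at HS-5 and R-1, 21 and 4 for AhHAB4-PAI-1 OE at HS-5 v HS-1 and HS-11 v HS-5, 17 for WT at HS-5 v HS-1, and 6 and 0 for the Ah2880 OE differences at HS-11 v HS-5 and R-1 v HS-11. Without the WT R-3 libraries it became 3 for Ah2880 OE v WT at R-1 and 2 for its R-1 v HS-11 difference.

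With 1 library left out at a time, counts ran as follows. For AhHAB4-PAI-1 OE v WT they were 6 to 22 at HS-1, 0 to 2 at HS-5, 21 to 24 at HS-11 and 2 to 5 at R-3. For Ah2880 OE v WT they were 0 to 5 at HS-1, 7 to 17 at HS-5, 5 to 8 at HS-11, 0 to 3 at R-1 and 1 to 2 at R-3. For stages in AhHAB4-PAI-1 OE they were 14 to 32 at HS-5 v HS-1, 1 to 12 at HS-11 v HS-5, 28 to 52 at R-1 v HS-11 and 2 to 5 at R-3 v R-1. In Ah2880 OE they were 6 to 19, 9 to 23 and 20 to 29 for the first 3 steps, and in WT 13 to 29, 15 to 22, 33 to 43 and 0 to 2. For the step differences they were 13 to 18 and 5 to 12 in AhHAB4-PAI-1 OE and 8 to 14 and 0 to 5 in Ah2880 OE. The 24 members that fell in all 3 lines at R-1 v HS-11 became 14 with library totals and 15 to 24 with 1 library left out, the fewest without Ah2880 OE R-1 replicate 2. A group with 1 library left was assumed to vary like the others. For Ah2880 OE, PEP-associated calls numbered 7 to 12 against WT at R-1 and 9 to 11 at R-1 v HS-11 over all alternatives, and turnover calls 3 to 4 and 4. The sign turned only for ATCG01210 in AhHAB4-PAI-1 OE v WT at R-3, to 0.15 without WT R-3 replicate 1, beside -2.10 without replicate 2. The cause of these shifts was not tested. The planned share of single-copy protein-coding members and the spread within operons were not run, since the IDs were not paired with that annotation. Depth limits the members under 100 counts, the comparisons of members in recovery and all of WT R-3.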
